A study of Homo sapiens with 12 samples.

Results

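The transcriptome of a TIMP1 knockout clone of the MIA PaCa-2 line, TIMP1 KO 2, was compared with that of the CRISPR Control line, to ask which genes depend on TIMP-1 in pancreatic cancer cells once the CRISPR procedure itself is accounted for. MIA PaCa-2 is an established human pancreatic ductal adenocarcinoma line. The CRISPR Control went through the same CRISPR-Cas9 procedure and carries only a silent point mutation. TIMP1 KO 2 is a single clone from a procedure that used a pair of guides aimed at exon 4 of TIMP1. Whether this clone received both guides is not stated in the sources used here. A separately derived clone, TIMP1 KO 1, and the unmodified parental cells, WT, were sequenced alongside them and are used here for reference. All 4 lines were grown in RPMI 1640 with fetal calf serum to 70% confluency without further treatment, and each gave 3 RNA libraries. The comparison rests on the 6 libraries of KO 2 and CRISPR Control and on the genes with a mean normalized read count of at least 10 over all 12 libraries, which were 15987 of the 63086 genes in the table. The genes nearest this limit had means of 10.01 (kept) and 9.998 (not kept). Because each line is 1 clone or culture, a difference caused by loss of TIMP-1 and a difference between clones cannot be told apart, and the p-values measure only the spread between libraries of the same line.

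TIMP1 encodes tissue inhibitor of metalloproteinases 1, a secreted glycoprotein that blocks matrix metalloproteinases. It also acts as a cytokine-like ligand, binding CD63 and CD74 on the cell surface, and it is abundant in the secretome of many carcinomas. In pancreatic cancer it has been linked to suppression of natural killer (NK) cells. TIMP1 lies on the X chromosome at chrX:47582408-47586789 (plus strand, GRCh38), inside an intron of SYN1, which is read from the opposite strand. The edited exon is exon 4 of the 6 exons of transcript ENST00000218388.9, at chrX:47585205-47585331, and its 127 bases are shown because this is the stretch at which both guides were aimed.
TIMP1 exon 4: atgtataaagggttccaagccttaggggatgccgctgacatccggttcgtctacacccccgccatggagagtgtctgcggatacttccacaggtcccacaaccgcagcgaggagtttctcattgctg

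TIMP1 transcripts were lower in KO 2 but were not lost. The normalized read count of TIMP1 was 2285, 2826 and 2959 in the 3 CRISPR Control libraries and 1136, 1192 and 1155 in the 3 KO 2 libraries. All KO 2 libraries lay below all CRISPR Control libraries, and the mean of KO 2 was 43.2% of the CRISPR Control mean and 32.7% of the WT mean. The log2 fold change was -1.20 (SE 0.09, adjusted p = 6.81e-10) in a limma fit across all genes with Benjamini-Hochberg adjustment. An exact two-sided permutation test of this gene alone gave p = 0.1, the smallest value that the 20 arrangements of 3 against 3 libraries can give. In the other pair, TIMP1 was 3837, 3290.2 and 3532 in WT and 1562, 1624 and 1613 in KO 1, a log2 fold change of -1.15. Gene counts sum reads over all exons, so neither the edit itself nor the protein level can be read from them.

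The 6 libraries held 26908701 to 36093563 reads in genes, which was also the range over all 12. The labelled cell line was checked against marker genes. KRT8, KRT18, VIM and ZEB1 were detected at high level, and CDKN2A, which is deleted in MIA PaCa-2, had at most 3 reads in every library. CDH1, EPCAM and ESRP1, listed as near absent from this line, were detected. Of 15 leukocyte markers, 10 had at most 3 reads in each of the 6 libraries, including CD3D, CD3E, CD2, MS4A1 and NKG7, while the summed level of the list was 70.3 to 79.5 in CRISPR Control and 191 to 214 in KO 2. The 10 fibroblast markers summed to 19188 to 22112 in CRISPR Control and 30832 to 41762 in KO 2, with DCN and FAP at no more than 3 reads. The 8 endothelial and acinar markers summed to 35.2 to 39.7 in CRISPR Control and 234 to 258 in KO 2, with CPA1, CELA3A and AMY2A at no more than 3 reads. The part of these sums in the results was not tested, and in bulk RNA fewer cells of a type and less RNA per cell cannot be told apart.

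KO 2 and CRISPR Control differed at 10828 of the 15987 genes (67.7%) at an adjusted p of 0.05. Of these, 5328 were higher in KO 2 (33.3% of genes tested) and 5500 were lower (34.4%), while 5159 were not called. The median log2 fold change of all tested genes was -0.01, and the median size of the change among called genes was 0.75. When every library was scaled to the same total instead, the median of all genes moved to 0.11 and 57.8% of called genes were higher, compared with 49.2% with the deposited scaling. Log2 fold changes of 1 or more in size were reached by 2424 genes that rose (15.2%) and 1495 genes that fell (9.35%). Those of 5 or more were reached by 112 genes that rose and 77 that fell. The libraries of the groups did not overlap for 10830 genes (67.7%). There were 97 genes called higher that had at most 3 reads in each CRISPR Control library, and 57 genes called lower that had at most 3 reads in each KO 2 library.

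Among called genes with a mean count of at least 100 whose libraries did not overlap, the 6 with the largest increases were EPHB6, HOXC12, TRBC2, TRPV6, OAS2 and TXNIP. EPHB6, a kinase-inactive member of the ephrin receptor family, had normalized counts of 16.4, 8.30 and 31.9 in CRISPR Control and 24590.1, 26692 and 27224 in KO 2, a log2 fold change of 10.55 (SE 0.26, adjusted p = 5.54e-17). HOXC12, a homeobox transcription factor of the posterior HOXC cluster, had 2.59, 3.56 and 2.20 in CRISPR Control and 3129.6, 3281 and 3148 in KO 2, a change of 9.73 (SE 0.11, adjusted p = 1.71e-21). Both genes were close to silent in CRISPR Control and abundant in every KO 2 library. They were also abundant in the unmodified cells, where the mean was 9010.3 for EPHB6 and 2897 for HOXC12. TXNIP, an arrestin-like inhibitor of thioredoxin and of glucose uptake, had 11.2, 4.74 and 14.3 in CRISPR Control and 3668, 3754 and 3629 in KO 2, a change of 8.49 (SE 0.22, adjusted p = 1.33e-16). Its WT mean was 565. OAS2, a sensor of double-stranded RNA that makes 2',5'-linked oligoadenylates, had 12.96, 11.9 and 14.3 in CRISPR Control and 5230.3, 5342 and 4886 in KO 2, a change of 8.52 (SE 0.19, adjusted p = 2.25e-17). Unlike the genes above, OAS2 was also low in WT, with a mean of 15.1, and it had a mean of 138 in KO 1. TRPV6, an epithelial calcium channel, and TRBC2, a T-cell receptor constant segment, rose by 8.60 and 8.85 on the log2 scale and are described with their neighbors below.

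The 6 genes with the largest decreases were COL3A1, INA, NTS, LYPD6B, TNFRSF11B and TOX3. COL3A1, the chain of fibrillar type III collagen, had normalized counts of 9816, 9670.1 and 9873 in CRISPR Control and 3.31, 1.75 and 4.04 in KO 2, a log2 fold change of -11.29 (SE 0.27, adjusted p = 5.61e-17). INA, the neuronal intermediate filament internexin, had 1371, 1503 and 1486 in CRISPR Control and 0, 0.877 and 0 in KO 2, a change of -10.20 (SE 0.27, adjusted p = 2.14e-16). NTS, the gut and brain peptide neurotensin, had 2165, 2974 and 2444 in CRISPR Control and 0.828, 1.75 and 1.01 in KO 2, a change of -10.18 (SE 0.26, adjusted p = 1.11e-16). Each of these genes was at or near 0 in all KO 2 libraries, and their WT means lay between the groups, at 146 for COL3A1, 282 for INA and 103 for NTS. LYPD6B, an Ly6-domain protein, had 602, 753 and 626 in CRISPR Control and no read in any KO 2 library, which makes it at least 243-fold lower when each KO 2 library is set to a floor of 3 reads. Such floors cover counting error only. TNFRSF11B, which encodes the decoy receptor osteoprotegerin, fell from 1284, 1492 and 1329.7 to 2.49, 0.877 and 1.01, a change of -9.18 (SE 0.39, adjusted p = 2.05e-13). TOX3, an HMG-box transcription cofactor, fell from 692, 627 and 649 to 0, 0 and 1.01, a change of -9.02 (SE 0.43, adjusted p = 1.16e-12). The means of TNFRSF11B and TOX3 in WT were 2.63 and 44.8, so the former was low in WT as well as in KO 2. INA, NTS, LYPD6B and TNFRSF11B also had no read in KO 1, where the means of COL3A1 and TOX3 were 0.375 and 0.750. TNFRSF11B passed the filter on low values only through CRISPR Control, so its direction was set by the filter.

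**Figure D1:**
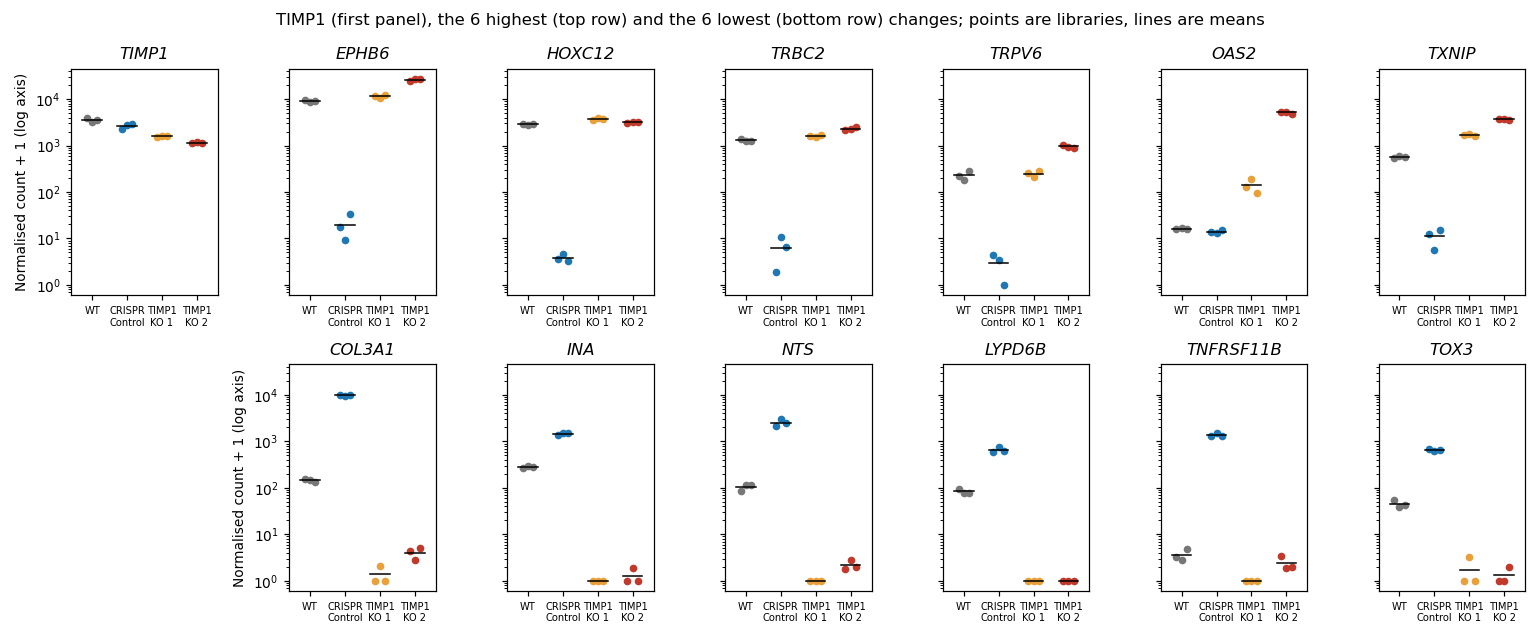
Normalized read counts of TIMP1 and of the 12 named genes with the largest changes, as count plus 1 on a log axis, in WT, CRISPR Control, TIMP1 KO 1 and TIMP1 KO 2. Points are the 3 libraries of each line and lines are means; in KO 2 the 6 upper genes lie above every CRISPR Control library and the 6 lower genes lie below, while TIMP1 falls from a CRISPR Control mean of 2690.4 to 1161.

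By change in mean count rather than in fold, the largest increases belonged to KRT8, CLU and KRT19. KRT8, an epithelial keratin, had normalized counts of 34968, 39858 and 45063 in CRISPR Control and 91072, 97421 and 100662 in KO 2, a log2 fold change of 1.28. CLU, the secreted chaperone clusterin, had 7285, 8222 and 8718 and 59809, 61157 and 68788 in the same order, a change of 2.97. KRT19, the keratin of ductal epithelium, had 3792, 4635 and 5321 and 47228, 50841 and 59423, a change of 3.52. The groups did not overlap for any of these genes. The WT means were 129995 for KRT8, 40529 for CLU and 15707 for KRT19, so KRT8 was lower in KO 2 than in WT. The largest decreases in mean count belonged to ACTB, PSAP and EEF1A1. ACTB, cytoplasmic beta-actin, had 222624, 253011 and 283207 in CRISPR Control and 144652, 148142 and 150924 in KO 2, a change of -0.77. PSAP, the precursor of lysosomal saposins, had 176264, 196647 and 203795 and 83726, 86584 and 95238, a change of -1.12. EEF1A1, a translation elongation factor, had 379604, 444223 and 435996 and 325743, 308972 and 337871, a change of -0.37. The WT means were 220277 for ACTB, 86275 for PSAP and 374349 for EEF1A1. The KO 2 mean of PSAP, 88516, was thus close to that of WT. Under quantile normalization, which gives the most abundant genes equal values in every library, ACTB and EEF1A1 were not called.

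EPHB6, TRBC2 and TRPV6 lie next to each other on chromosome 7, so the genes around them were listed after these values had been seen. TRBC2 had normalized counts of 0.864, 9.49 and 5.49 in CRISPR Control and 2199, 2289 and 2476 in KO 2, and TRPV6 had 3.45, 2.37 and 0 and 1011, 951 and 900.0. TRBV30, a T-cell receptor variable segment at chr7:142812586-142813399, had no read in CRISPR Control and 335, 362 and 374 in KO 2, at least 113-fold higher at a floor of 3 reads per CRISPR Control library. PRSS2, which encodes a pancreatic trypsinogen, had no read in CRISPR Control and 42.2, 38.6 and 33.3 in KO 2, at least 12.1-fold higher. These genes were expressed in the unmodified line, with WT means of 1291 for TRBC2, 226 for TRPV6, 48.3 for TRBV30 and 152 for PRSS2. TCAF2, a TRP channel regulator at chr7:143620952-143730410, had 0.864, 2.37 and 4.40 in CRISPR Control and 519, 509 and 471 in KO 2, a log2 fold change of 7.27. Its WT mean was 399 and its KO 1 mean was 279.8. Other protein-coding genes of this region had reads in every CRISPR Control library. GSTK1, between TRPV6 and TCAF2, changed by 0.21, CASP2 by -0.66 and ZYX by -0.85. FAM131B-AS2 and TCAF1P1, also between TRPV6 and TCAF2, rose by 0.99 and 1.03. Upstream of PRSS2, AGK and SSBP1 were not called, with changes of 0.05 and -0.16. DENND11, which lies between them, rose from a mean of 178 to 884, a change of 2.34 (SE 0.14, adjusted p = 2.16e-11), with a WT mean of 731. T-cell genes outside this locus stayed near 0, with CD3D, CD3E and CD2 at no more than 3 reads in each of the 6 libraries.

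Gene lists covering the TIMP-1 system, innate immunity, matrix, cell identity, proliferation and metabolism were then described by their members. Each list is given by how many tested members rose or fell, and by its median log2 fold change, to be read beside the median of all genes of -0.01 and the shares of 33.3% higher and 34.4% lower among all genes. A member can pass the filter on low values only through the line in which it is high, so the counts cover the members that passed and not the whole lists. With this filter, interferon effectors had the highest median and cadherins the lowest, and 58 of 59 DNA replication genes and 57 of 59 mitosis genes fell.

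Interferons are secreted when cells detect viral or misplaced nucleic acid. Sensors such as MDA5 (encoded by IFIH1) and RIG-I signal to induce type I and type III interferons, which act through receptors and the JAK and STAT proteins. A transcription factor complex that includes STAT2 and IRF9 then binds a DNA element, the interferon-stimulated response element, in the promoters of effector genes that block viral replication and raise antigen presentation. This element carries a pair of GAAA repeats 2 bases apart. To show it, promoter windows around the RefSeq start sites (GRCh38.p14) were searched on both strands for GAAA, any 2 bases and GAAA, allowing overlapping matches. The core occurred in 319 of 11488 windows of tested genes (2.78%), compared with 30 of 43 windows of interferon effectors (69.8%), 9 of 17 of MHC class I genes (52.9%), 5 of 16 of nucleic acid sensing genes (31.2%) and 4 of 22 of interferon signalling genes (18.2%). Of DNA replication genes, 1 of 51 windows held it. A match is a description and not a binding site. The matches of 5 effector and presentation genes and of IFNL1 are shown with the bases around them, in the direction of transcription and with matches in capitals, because these genes or their lists carry the interferon result. The first base of the first match lay 18 bases before the start site of IFI44, 113 before that of ISG15, 116 before that of IFIT1, 156 before that of IFIT3, 134 before that of TAP1 and 214 before that of IFNL1. Before the start site, the windows of OAS1, RSAD2, XAF1, MX1, HLA-B, IFI16, CMPK2, IFNB1, IRF9 and PSMB9 held no match. The bases after the start site, which the shares above include, were left out of this look at single genes.
IFI44, chr1:78649731-78649788, plus strand: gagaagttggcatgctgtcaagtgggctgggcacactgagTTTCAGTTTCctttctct
ISG15, chr1:1013344-1013439, plus strand: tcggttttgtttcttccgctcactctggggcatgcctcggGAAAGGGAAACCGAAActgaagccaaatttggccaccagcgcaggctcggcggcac
IFIT1, chr10:89392467-89392569, plus strand: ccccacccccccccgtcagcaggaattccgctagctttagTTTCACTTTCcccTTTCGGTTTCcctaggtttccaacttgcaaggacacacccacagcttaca
IFIT3, chr10:89327801-89327924, plus strand: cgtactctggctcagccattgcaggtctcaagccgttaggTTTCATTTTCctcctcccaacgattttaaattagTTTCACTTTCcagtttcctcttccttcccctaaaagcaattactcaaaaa
TAP1, chr6:32853783-32853878, minus strand: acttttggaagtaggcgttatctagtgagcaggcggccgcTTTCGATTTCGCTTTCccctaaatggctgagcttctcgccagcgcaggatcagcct
IFNL1, chr19:39296157-39296248, plus strand: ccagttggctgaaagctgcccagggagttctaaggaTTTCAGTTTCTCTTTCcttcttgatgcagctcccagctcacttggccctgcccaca

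Of the 9 interferon ligands listed, only the 3 type III genes passed the filter on low values. They passed through their level in KO 2, so their direction was set by the filter and is given as a description. IFNL1, which encodes interferon lambda-1, had normalized counts of 0.864, 7.12 and 1.10 in CRISPR Control and 123, 160.5 and 130.2 in KO 2, with means of 0.755 in WT and 9.42 in KO 1. IFNL2 and IFNL3 had KO 2 means of 88.0 and 95 against 3.45 and 2.55, but their sequences are near identical and reads can be split between them. IFNB1, the type I interferon beta gene, was below the filter. It had no read in CRISPR Control and 12.4, 17.5 and 6.05 in KO 2. IFNA1, IFNK, IFNW1 and IFNG had no read in any of the 6 libraries.

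All 10 tested RNA sensors rose, as did 3 of 4 tested DNA sensors, and 17 of the 22 tested members of the sensing list rose while none fell (median 1.504). OAS1, which with OAS2 activates RNase L, had a mean of 29.1 ± 3.64 (SD, n = 3) in CRISPR Control and 4198 ± 293 in KO 2, a log2 fold change of 7.13 (SE 0.16, adjusted p = 1.54e-17). IFIH1, the sensor of long double-stranded RNA, had 377, 302 and 346 in CRISPR Control and 3142, 2974 and 2807 in KO 2, a change of 3.12 (SE 0.10, adjusted p = 3.31e-15). RIGI, which recognizes RNA with a 5' triphosphate, rose from 12.4 to 44.9, a change of 1.81. These sensors had WT means of 55.7, 140.1 and 12.46, in that order. Of 8 adaptors and kinases, 4 rose and none fell. MAVS, IKBKE, TICAM1 and TRAF6 rose by 0.32 to 0.98, and TBK1, TRAF3, MYD88 and IRF3 were not called. CGAS, the sensor of cytosolic DNA, was not called, with a change of -0.23.

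Of the 6 interferon receptor genes, 3 rose and 3 were not called. IFNGR2, IFNAR1 and IFNGR1 rose by 1.23, 0.35 and 0.32, and IFNAR2, IFNLR1 and IL10RB were not called. Of the 12 tested kinases and transcription factors, 10 rose and 2 fell. IRF9, which gives the STAT complex its DNA specificity, had 12.96, 14.2 and 16.5 in CRISPR Control and 115, 156 and 105 in KO 2, a log2 fold change of 3.01 (SE 0.23, adjusted p = 1.42e-09). STAT2 rose from 674 to 2705 and IRF7, which amplifies interferon transcription, from 370.4 to 2049.7. IRF5 fell from 617 to 217, a change of -1.49, with a WT mean of 190. Of the 6 feedback inhibitors, 3 rose and 3 fell. USP18, which removes ISG15 and blocks receptor signalling, rose from 238 to 1619, and PTPN6, a phosphatase, fell from 427 to 194. The WT mean of PTPN6 was 223, so IRF5 and PTPN6 in KO 2 were both near their WT level.

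Of the 61 interferon effectors, 59 were tested, 58 rose and 1 fell, with a median log2 fold change of 3.41. All 5 genes of ISG15 conjugation and all 20 tested genes of the remaining group rose. IFI44 had normalized counts of 3.45, 0 and 0 in CRISPR Control and 496, 519.9 and 466 in KO 2, a log2 fold change of 8.23 (SE 0.62, adjusted p = 1.10e-09). RSAD2, which encodes viperin, had 3.45, 3.56 and 2.20 in CRISPR Control and 747, 718 and 754 in KO 2, a change of 7.53 (SE 0.38, adjusted p = 2.89e-12). Both were near 0 in all CRISPR Control libraries. Their WT and KO 1 means were 5.17 and 2.76 for IFI44 and 2.82 and 10.6 for RSAD2. Both passed the filter on low values only through KO 2. Their direction was therefore set by the filter and is given as a description. MX1, a dynamin-like GTPase that traps viral ribonucleoproteins, had 70.0, 99.6 and 74.7 in CRISPR Control and 9948, 10475 and 9963 in KO 2, a change of 6.96 (SE 0.16, adjusted p = 3.02e-17). IFIT1, which binds RNA lacking cap methylation, had 331, 266 and 287 and 9168, 8801 and 8448, a change of 4.90 (SE 0.10, adjusted p = 6.10e-18). IFIT3, its binding partner, rose by 4.52. ISG15, a ubiquitin-like modifier, had 532, 657 and 695 and 8013, 9615 and 10751, a change of 3.91 (SE 0.12, adjusted p = 1.34e-15). Every KO 2 library lay above every CRISPR Control library for these genes. The summed leukocyte markers were also higher, at 191 to 214 in KO 2 against 70.3 to 79.5 in CRISPR Control. Most of this sum was CD14, a monocyte co-receptor, which rose from 36.5 to 161, while 10 of the 15 markers, CD3D, CD3E, CD2, MS4A1, NKG7 and HLA-DRA among them, had at most 3 reads in each of the 6 libraries. The effector that fell was IFITM2, which limits virus entry from endosomes and fell from 496, 626 and 715 in CRISPR Control to 113, 109.6 and 137 in KO 2, a change of -2.33 (SE 0.14, adjusted p = 2.25e-11). Its close relatives IFITM1 and IFITM3 rose by 3.41 and 1.49, although reads can be shared among these paralogs. For reference, 48 of the 59 effectors were also higher in KO 1 than in WT and 3 were lower, beside 18.0% and 17.5% of all genes, and WT means of MX1, IFIT1 and ISG15 were 54.6, 854 and 459. IFI44 was not called in KO 1 against WT, with a change of -0.60.

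**Figure D2:**
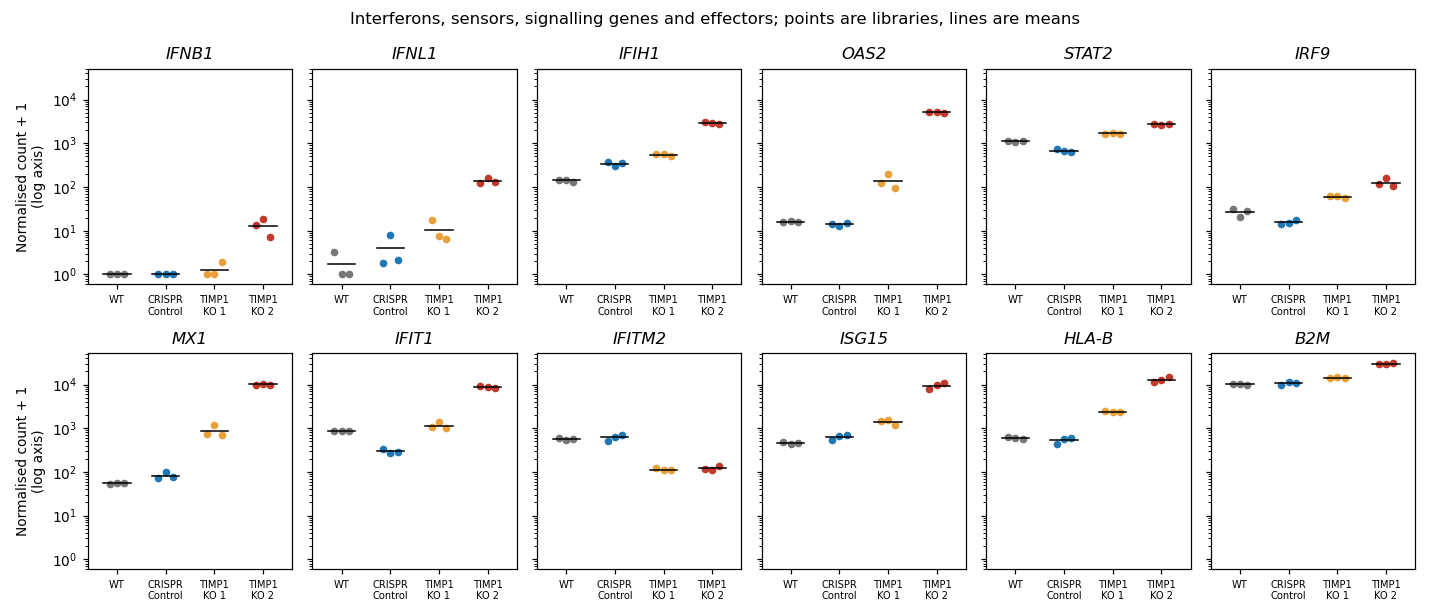
Normalized read counts, as count plus 1 on a log axis, of 12 interferon and MHC class I genes in the 3 libraries of WT, CRISPR Control, TIMP1 KO 1 and TIMP1 KO 2; points are libraries and lines are means. KO 2 lies above CRISPR Control in every panel except IFITM2, which fell from 612 to 120.1.

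MHC class I molecules present peptides to CD8 T cells and inhibit NK cells that carry matching receptors. Of 21 tested members, 17 rose, 1 fell and 3 were not called (median 1.49). All 6 tested heavy and light chain genes rose. HLA-B had 427, 559.8 and 598 in CRISPR Control and 11612, 12629 and 14722 in KO 2, a log2 fold change of 4.63 (SE 0.11, adjusted p = 2.75e-17). B2M, the common light chain, had 9801, 11243 and 10773 and 29522, 29397 and 30632, a change of 1.49 (SE 0.07, adjusted p = 4.74e-13). HLA-E rose by 0.96, with reads possibly shared among the HLA genes. NLRC5, the transactivator of class I genes, rose from 74.6 to 532. TAPBPL, a peptide editor that overlaps CD27 on the same strand, rose from 50.1, 22.5 and 38.5 to 538, 663 and 631, a change of 4.07. Its WT and KO 1 means were 145 and 332. TAP1, a subunit of the peptide transporter, rose by 1.11, and TAP2 was not called at -0.07. PDIA3, an endoplasmic reticulum oxidoreductase, fell by 0.26 on the log2 scale, and the fall was lost when libraries were scaled to equal totals.

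Ligands of NK cell receptors moved in both directions. Of 24 tested ligands, 13 rose, 6 fell and 5 were not called (median 0.40). Among activating ligands, ULBP2, which binds NKG2D, rose by 1.01, MICA by 0.33 and RAET1G by 2.94, while MICB was not called. PVR, which binds DNAM-1, fell from 3687 to 2696. Among inhibitory or death ligands, TNFSF10, the apoptosis ligand TRAIL, had 13.8, 5.93 and 3.30 in CRISPR Control and 108, 118 and 131 in KO 2, a change of 3.97 (SE 0.36, adjusted p = 1.33e-08). NT5E, the ectonucleotidase CD73 that makes adenosine, had 3806, 3552 and 3315 and 24327, 22424 and 20985, a change of 2.67 (SE 0.07, adjusted p = 3.11e-16). Its WT mean was 11279. NECTIN3, a ligand of TIGIT, fell from 531 to 51.7, a change of -3.35. CD276, the checkpoint molecule B7-H3, fell from 4673, 4425 and 5062 to 1874, 1994 and 2123, a change of -1.24.

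Of 32 tested cytokines, chemokines and TNF family members, 16 rose, 6 fell and 10 were not called (median 0.52). CX3CL1, the transmembrane chemokine fractalkine that attracts NK cells and T cells, had normalized counts of 143, 115 and 158 in CRISPR Control and 8907, 9168 and 9227 in KO 2, a log2 fold change of 6.04 (SE 0.09, adjusted p = 8.06e-20). The WT and KO 1 means of CX3CL1 were 3968 and 12980.1. CCL26, eotaxin-3, had 0, 1.19 and 5.49 and 116, 129.8 and 122, a change of 5.67 (SE 0.61, adjusted p = 1.28e-07). CCL5 rose from 3.47 to 174 and CCL2, the monocyte attractant, from 1525 to 6553. TNFRSF21, death receptor 6, fell from 3582, 3728 and 4008 to 721, 794 and 849.5, a change of -2.26 (SE 0.08, adjusted p = 2.66e-14). The list also held TNFRSF11B, described above. IL6, IL1B, CXCL10 and CD274 were below the filter on low values.

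The TIMP-1 system was taken as the inhibitors, the surface partners of TIMP-1 and the metalloproteinases. Of 41 tested members, 20 rose, 15 fell and 6 were not called (median 0.31). The list median minus that of all genes was 0.32, and it was 0.037 with no filter on low values and 0.20 with quantile normalization. TIMP2 fell from 4093 to 2088, a log2 fold change of -0.97, while RECK, a membrane-bound inhibitor, rose by 0.84. Of 6 surface partners, 5 rose. CD82, a tetraspanin that binds TIMP-1, had 251, 253 and 277 in CRISPR Control and 1748, 1832 and 1883 in KO 2, a change of 2.80 (SE 0.09, adjusted p = 2.06e-15). CD74, the invariant chain that serves as a TIMP-1 receptor, rose from 25.8 to 109.8, CD44 rose by 1.08 and ITGB1 by 0.90. CD63, a tetraspanin receptor of TIMP-1, fell from 20647 to 15624, a change of -0.39. Of 32 tested metalloproteinases, 14 rose and 12 fell. MMP28, epilysin, rose from 0.864, 2.37 and 2.20 to 196, 215 and 238, a change of 6.32 (SE 0.26, adjusted p = 1.06e-13). The WT and KO 1 means of MMP28 were 36.2 and 162. ADAM8 rose by 2.92, MMP9 by 0.84 and ADAMTS1 by 2.87, while MMP2, gelatinase A, fell from 1248 to 635 and ADAMTS2, which processes procollagen, fell from 62.0 to 3.62. The WT and KO 1 means of MMP2 were 456 and 678, so MMP2 in KO 2 lay above WT.

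Of 32 tested collagen chains, 17 fell, 9 rose and 6 were not called (median -0.50). Besides COL3A1, COL5A2 fell from 34687 to 457, a log2 fold change of -6.25, and COL4A1, a basement membrane chain, had 181, 141 and 182 in CRISPR Control and 0.828, 0.877 and 0 in KO 2, a change of -6.80 (SE 0.39, adjusted p = 1.86e-11). COL4A2, its partner chain, fell by 5.93. In contrast, COL1A1 rose from 8906, 7654 and 10044 to 28872, 32819 and 39818, a change of 1.93 (SE 0.11, adjusted p = 2.56e-11). COL1A2, the partner chain of type I collagen, had 9.501, 10.7 and 5.49 in CRISPR Control and no read in KO 2, and its WT mean was 8217 with no read in KO 1. COL6A3 rose from 5.17 to 476, below its WT mean of 723, and COL13A1, a transmembrane collagen, rose from 98.9 to 958. COL1A1, COL1A2 and COL3A1 are also in the fibroblast marker list given above, whose markers DCN and FAP had at most 3 reads.

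Of 56 tested matrix glycoproteins, laminins and integrins, 25 rose, 22 fell and 9 were not called (median 0.02). EFEMP1, fibulin-3, had 1.73, 7.12 and 8.79 in CRISPR Control and 953, 866 and 803 in KO 2, a log2 fold change of 7.18 (SE 0.30, adjusted p = 1.46e-13). BGN, the proteoglycan biglycan, fell from 442, 467 and 622 to 6.63, 4.38 and 3.03, a change of -6.53 (SE 0.34, adjusted p = 4.01e-12). TNC, tenascin-C, fell from 952, 648 and 769 to 13.3, 11.4 and 18.2, a change of -5.70 (SE 0.37, adjusted p = 1.01e-10). FN1, fibronectin, fell from 826 to 90.6, and SPARC and VCAN fell by 2.13 and 2.80. THBS1, thrombospondin-1, rose by 3.46 and TGFBI by 4.02. Of 16 tested integrins, 9 rose and 4 fell, with ITGA10, a collagen-binding alpha chain, rising from 21.9 to 526 and ITGB4, the hemidesmosome chain, falling by 2.47 on the log2 scale. The WT and KO 1 means of ITGA10 were 327 and 605, so CRISPR Control lay below both.

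Cadherins link neighboring cells through calcium-dependent contacts. Of 18 tested cadherins and protocadherins, 14 fell and 4 rose (median -2.65). With no filter on low values, the list median minus that of all genes was -0.78 instead of -2.64 and was no longer the lowest of the lists. CDH1, E-cadherin, had normalized counts of 1487, 1344 and 1442 in CRISPR Control and 103, 83.3 and 68.6 in KO 2, a log2 fold change of -4.07 (SE 0.15, adjusted p = 2.00e-14). CDH3, P-cadherin, had 1277, 1288 and 1392 and 24.0, 41.2 and 36.3, a change of -5.28 (SE 0.25, adjusted p = 9.56e-13). CDH2, N-cadherin, fell by 1.53. PCDH17 fell from 256 to 12.53, while DSC2, desmocollin-2, rose by 0.75 and PCDH18 by 0.60. PCDH17 had WT and KO 1 means of 3.10 and 0.949, so it passed the filter only through CRISPR Control, which set its direction. The WT means of CDH1 and CDH3 were 1189 and 427.

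Markers of the epithelial and the mesenchymal state moved in both directions. Of 20 tested epithelial genes, 7 rose and 9 fell, and of 22 mesenchymal genes 10 rose and 7 fell. KRT19, KRT7, CLDN3 and CLDN7 rose, whereas ESRP1, the epithelial splicing regulator, fell from 259.8 to 6.52, a change of -5.50, and CLDN1 fell from 1675 to 249.7. ESRP1 had WT and KO 1 means of 19.9 and 2.85, so it passed the filter only through CRISPR Control, which set its direction. VIM and ZEB1 rose by 0.32 and 0.41, SNAI1 fell by 0.72 and SNAI2 was not called. Of 26 tested HOX cluster genes, 15 rose and 2 fell (median 0.49). HOXC11, which overlaps the antisense gene HOTAIR, rose from 353, 493 and 426 to 1147, 1204 and 1299, a change of 1.53, and HOXC6 and HOXC8 fell by 0.30 and 0.32. The WT and KO 1 means of HOXC11 were 1081 and 1109. In KO 2 against WT it was not called, with a change of 0.17. HOXC6 and HOXC8 overlap on the same strand, so reads can be shared between them. The HOXC8 fall was not called when libraries were scaled to equal totals or when CRISPR Control replicate 2 was left out.

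Genes of DNA replication and mitosis were lower nearly throughout. Of 59 replication genes, 58 fell and 0 rose (median -0.85), and only ORC4 was not called. Of 59 mitosis genes, 57 fell and 0 rose (median -0.92), with KIF18A and ASPM not called. GINS2, part of the replicative helicase, had 1246, 1435 and 1560.4 in CRISPR Control and 418, 362 and 424 in KO 2, a log2 fold change of -1.81 (SE 0.10, adjusted p = 1.30e-11). TK1, the thymidine kinase of S phase, had 7972, 9489 and 11080.2 and 3040.1, 3318 and 3906, a change of -1.47 (SE 0.11, adjusted p = 5.09e-10). PLK1, the mitotic kinase, had 7014, 6982 and 8401 and 2153, 2288 and 2179, a change of -1.75 (SE 0.08, adjusted p = 3.23e-13). The groups did not overlap for any of these genes. CDC25A, a phosphatase that activates cyclin-dependent kinases, fell from 1284 to 401, TOP2A from 26977 to 10789.5 and MKI67 from 13323 to 7563. The MCM helicase subunits MCM2 to MCM7 fell by 1.04 to 1.41. In KO 1 against WT, 51 of the 59 replication genes and 33 of the 59 mitosis genes were lower and none of either list was higher. Among all tested genes, 17.5% were lower and 18.0% higher in that comparison. The list medians there were -0.54 for replication and -0.24 for mitosis.

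Targets of the MAPK pathway moved both ways, with 14 of 34 tested genes higher and 15 lower (median 0.00). Of 13 tested transcription factors, 7 rose and 4 fell. ETV1 rose from 94.9 to 1519.6 and FOSB from 22.5 to 341, while FOSL1 and ETV4 fell by 0.92 and 0.98. EREG, the EGF receptor ligand epiregulin, fell from 721, 760.3 and 643 to 14.9, 7.01 and 6.05, a change of -6.20 (SE 0.28, adjusted p = 5.46e-13), and AREG, amphiregulin, fell by 4.87. EPHA4 fell from 129 to 26.7. The transcription factor MYC was not called, with a change of 0.03.

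Targets of ATF4, the transcription factor of amino acid stress, were mostly lower, with 18 of 27 tested genes down and 2 up (median -0.56). SLC7A5, the large neutral amino acid transporter, had 26709.6, 22825 and 29592 in CRISPR Control and 4954, 5393 and 5438 in KO 2, a log2 fold change of -2.32 (SE 0.08, adjusted p = 1.94e-14). GDF15, a stress cytokine, fell from 7905 to 1909.6, and SLC7A11, the cystine transporter, fell by 1.96. ATF3 rose from 376 to 1481. Endoplasmic reticulum chaperones and sensors were mixed, with 7 higher, 4 lower and 8 not called, among them HSPA5, and CREB3L2, a transmembrane transcription factor, rose from 923 to 2232.

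Of 30 tested cholesterol genes, 8 rose and 10 fell (median -0.07). TM7SF2, a late enzyme of the pathway, rose from 627 to 3420.3, while HMGCS1, an early enzyme, fell from 1573 to 654 and STARD4, a sterol carrier, from 546 to 161. The WT and KO 1 means of TM7SF2 were 1890 and 3379. Of 38 tested glycolysis and hypoxia genes, 17 rose and 11 fell (median 0.15). EPAS1, the hypoxia-inducible factor HIF-2 alpha, had 303, 206 and 268 in CRISPR Control and 7735, 7709.6 and 7353 in KO 2, a log2 fold change of 4.89 (SE 0.10, adjusted p = 5.83e-18), with a WT mean of 3841. NDRG1 rose from 494 to 5567. SLC2A3, the glucose transporter GLUT3, fell from 161 to 20.9 and ADM, adrenomedullin, from 6515 to 2462. GAPDH, PKM and LDHA were not called.

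Changes were also read along chromosomes, as the median of the log2 fold change in windows of 30 neighboring tested genes. Windows beyond 0.5 in size joined into 43 stretches with a higher median, holding 2405 genes (15.04% of genes tested), and 24 with a lower median, holding 1508 genes (9.43%). This balance depended on the settings, since the counts were 3663 and 793 genes with equal library totals and 1522 and 863 genes with windows of 60 genes. The chromosome medians were highest for 14 (0.49), 21 (0.44) and 20 (0.39) and lowest for 15 (-0.35), 3 (-0.30) and 8 (-0.28). On chromosome 14, 308 of 506 tested genes rose and 61 fell, and on chromosome 3, 197 of 862 rose and 440 fell. In KO 2 against WT the medians of chromosomes 14, 21 and 20 were 0.14, 0.05 and 0.12, and in CRISPR Control against WT they were -0.31, -0.47 and -0.23. For chromosomes 15, 3 and 8 they were -0.19, -0.04 and -0.16 in KO 2 against WT, and 0.15, 0.25 and 0.15 in CRISPR Control against WT. Both comparisons share the WT libraries. In KO 1 against WT these 6 chromosome medians lay within 0.12 of 0.

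The stretch with a higher median that held the most tested genes was chr14:19072333-50312229, with 119 of 165 tested genes higher, 12 lower and a median of 0.65. Its most abundant genes were HNRNPC, LRP10 and SUPT16H. HNRNPC, an RNA-binding protein, was not called and changed by -0.01, LRP10, a lipoprotein receptor, rose by 1.85 and SUPT16H, a histone chaperone subunit, rose by 0.21. At chr14:60245752-77708023, 91 of 135 tested genes rose and 13 fell (median 0.63). There ACTN1, an actin crosslinker, rose by 0.52, LTBP2, a latent TGF-beta binding protein, rose by 5.13 and MTHFD1, a folate enzyme, fell by 0.30. At chr21:20998409-46286297, 82 of 138 tested genes rose and 20 fell (median 0.50), with APP, the amyloid precursor, up by 1.28, COL18A1 by 0.68 and PTTG1IP by 0.62. On the lower side, 28 of 229 tested genes rose and 160 fell at chr3:44648732-100181732 (median -0.60), where the ribosomal protein gene RPL29 and the microtubule-associated MAP4 changed by -0.88 and -0.37. At chr3:4303332-30010391, 18 of 103 rose and 69 fell (median -0.55), with RPL15, RPL32 and SLC4A7 changing by -0.82, -1.47 and -1.62. A stretch of 244 tested genes on chromosome 8 had 32 higher and 157 lower (median -0.57), with PABPC1, YWHAZ and RPL7 changing by -1.01, -0.76 and -1.20.

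**Figure D3:**
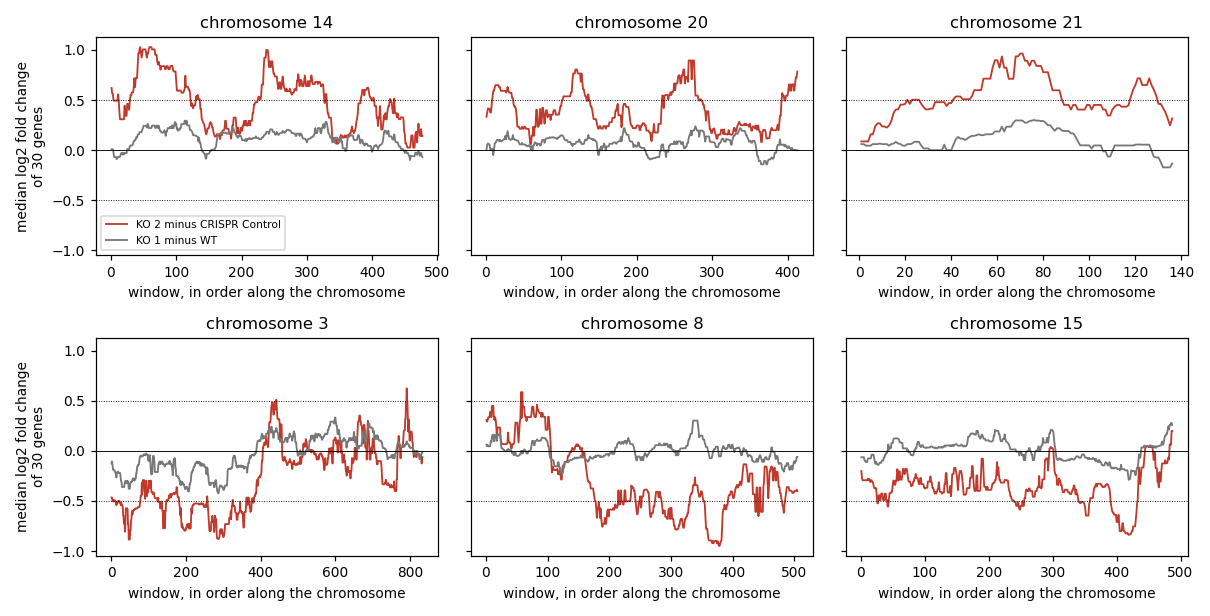
Median log2 fold change in sliding windows of 30 tested genes along chromosomes 14, 20 and 21 (upper row) and 3, 8 and 15 (lower row), in order of gene position. The red line is KO 2 minus CRISPR Control and the gray line KO 1 minus WT, with dotted lines at 0.5 and -0.5; the chromosome medians of the red line are 0.49, 0.39 and 0.44 above and -0.30, -0.28 and -0.35 below.

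The clone KO 1 and its reference WT share no library with KO 2 and CRISPR Control, so the comparisons were set beside each other. Both came from the same fit, so their calls share the filter and the estimate of spread for each gene. Of 5328 genes higher in KO 2 than in CRISPR Control, 2132 (40.02%) were also higher in KO 1 than in WT and 237 (4.45%) were lower, beside 18.0% higher and 17.5% lower among all tested genes in that comparison. Of 5500 genes lower in KO 2, 2171 (39.5%) were also lower in KO 1 and 176 (3.20%) were higher. Read the other way, these were 74.0% of the 2883 genes higher and 77.6% of the 2799 genes lower in KO 1. With a log2 fold change of 1 or more in size required in both, 482 genes were higher and 450 lower. A test of the difference between the changes, added after these results were known, found 7111 genes (44.5%) that changed by different amounts in the 2 comparisons, and TIMP1 was not among them. This difference also carries the gap between CRISPR Control and WT.

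**Figure D4:**
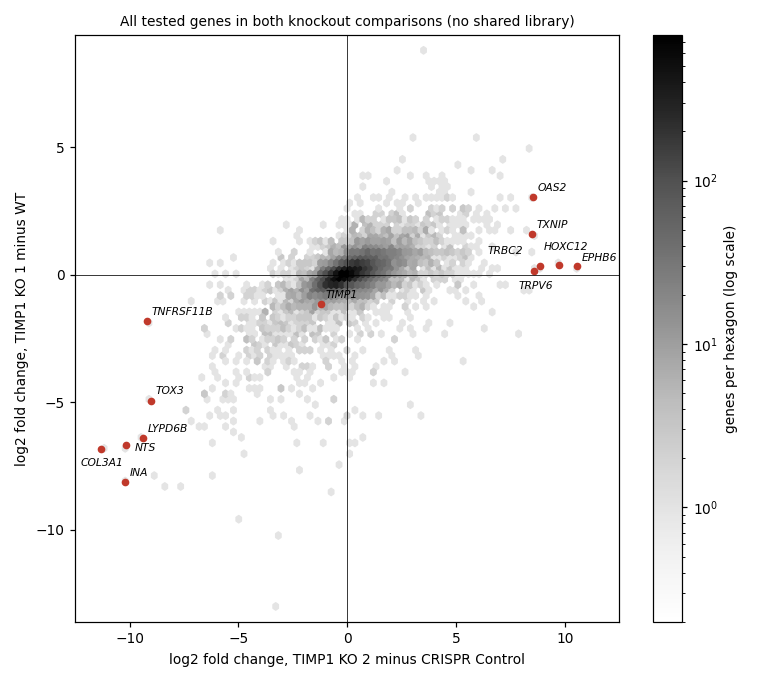
Log2 fold change of KO 2 minus CRISPR Control (horizontal) against KO 1 minus WT (vertical) for the 15987 tested genes; darker hexagons hold more genes and red points are named genes. OAS2 is high on both axes, TIMP1 is near -1.2 on both, and EPHB6, TRBC2 and TRPV6 are far to the right with little change on the vertical axis.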

How the data were processed

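Total RNA was extracted with RNeasy Plus and sequenced as paired reads of 150 bases on a NovaSeq X Plus. The authors trimmed reads with Cutadapt, aligned them to GRCh38 with STAR, counted them with featureCounts and divided counts by DESeq2 size factors, with FastQC and MultiQC as quality checks on Galaxy. The strand setting and annotation release of the counting are not given in the sources used here. The deposited values are therefore a signal, namely counts divided by a size factor; the reads recovered from them were whole within 0.01. Beside the 63086 gene rows, 1 row was blank and was left out, and 4 pooled mean columns were not used.

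Values were tested as log2(value + 1) with limma 3.58.1 (R 4.3.3; lmFit, contrasts.fit and eBayes with trend) over all 12 libraries with 4 line means, for genes with a mean of at least 10, and p-values were two-sided and Benjamini-Hochberg adjusted at 0.05. A fold change on this scale understates the change of low genes. edgeR 4.0.16 and DESeq2 1.42.0 on the recovered whole reads, other scalings, pseudocounts and filters, and leaving out libraries were alternatives. The fit was tested on simulated data first.

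The members and lists were chosen with earlier results of these data known. The genes named were TIMP1, the 6 highest and 6 lowest fold changes among called, non-overlapping genes with a mean of at least 100 over the 6 libraries, the 3 largest increases and 3 largest decreases in mean count, up to 2 highest and 2 lowest called members of each list with a mean of at least 50, the 3 most abundant genes of a stretch, and ligands, receptors or sensors of a described pathway. Other members named as examples, and the neighbors of EPHB6, were chosen after their values were seen. Reads from overlapping genes on opposite strands cannot be told apart where counting ignored strand. Such pairs include TIMP1 and SYN1, KRT8 and KRT18, COL4A1 and COL4A2, and INA and NT5C2. They also include IFIT1 and IFIT3 with LIPA, RSAD2 with CMPK2, TAP1 with PSMB9 and MX1 with TMPRSS2. Gene IDs matched GENCODE release 44 for 99.1% of genes, and promoter windows came from RefSeq (GRCh38.p14) for 11488 of the 15987 tested genes by symbol. Tested genes held 99.9% of all reads. A few genes that the rule names are not reported here.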

Additional observations from a re-analysis of the deposited data

Results flagged for a closer look

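The change in KO 2 minus CRISPR Control was compared with the change in KO 1 minus WT for TIMP1 and the 12 named genes with the largest changes, as the contrast of both differences in the same limma fit with Benjamini-Hochberg adjustment over all genes tested. These genes were chosen after the data had been seen, and the 12 were picked for their extreme change in KO 2 minus CRISPR Control. The contrast also carries the gap between the reference lines, CRISPR Control and WT, so it does not compare the clones with each other. LYPD6B had no read in any library of either clone, and its CRISPR Control minus WT value was 2.97. HOXC12 had means of 3186 in KO 2 and 3716 in KO 1, with a CRISPR Control minus WT value of -9.60. For OAS2 the CRISPR Control minus WT value was -0.20. The change differed between the comparisons for all 12 genes, and for TIMP1 the difference did not pass the threshold. The difference of changes on the log2 scale was 10.21 for EPHB6 (adjusted p = 8.74e-14), 9.38 for HOXC12 (1.88e-18), 8.52 for TRBC2 (1.62e-10), 8.44 for TRPV6 (1.31e-10), 6.92 for TXNIP (2.69e-12) and 5.47 for OAS2 (1.26e-11). It was -2.06 for INA (0.000281), -2.97 for LYPD6B (1.68e-05), -3.50 for NTS (4.13e-07), -4.09 for TOX3 (2.75e-05), -4.45 for COL3A1 (3.54e-08) and -7.36 for TNFRSF11B (4.49e-09).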

How the results depend on the processing

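With 3 libraries of 1 clone per line, the libraries limit precision more than depth, and the strand setting of the counting is not known here. The number of genes called was 10828 and ranged from 9184 to 12122 over other pseudocounts, filters, scalings and tools, from 10037 to 10753 when 1 library was left out (higher 4937 to 5308, lower 5100 to 5445), and was 10889 with edgeR and 10847 with DESeq2. Requiring a log2 fold change of 1 or more in size reduced it to 3919 (2424 higher, 1495 lower) and the genes shared with KO 1 against WT to 482 higher and 450 lower; leaving out 1 library gave 1811 to 2299 and 1779 to 2331. TIMP1 ranged from -1.32 to -1.13 when 1 library was left out.

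Libraries of KO 2 and CRISPR Control with the same replicate number had correlations of deviations of 0.16, -0.06 and 0.14. Those with different numbers ranged from -0.19 to 0.04. With 3 libraries per line, these values cannot decide whether the numbers pair the libraries. A fit with the replicate number as a block, the replicate block, called 10832 genes.

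List medians below are minus the median of all genes, with the main value in brackets. With pseudocount 10, nucleic acid sensing was 1.29 (1.51), interferon effectors 3.13 (3.42), cytokines 0.36 (0.52) and cadherins -1.79 (-2.64). With a minimum mean of 50, sensing was 1.03, interferon signalling 0.60 (0.79), effectors 3.29, NK ligands 0.30 (0.41), matrix genes 0.49 (0.03) and cadherins -2.36. With no filter, the TIMP list was 0.037 (0.32), sensing 1.12, signalling 0.66, NK ligands 0.48, cytokines 0.69, collagens -0.36 (-0.49), HOX genes 0.27 (0.50) and cadherins -0.78. With quantile normalization, the TIMP list was 0.20, signalling 0.91, effectors 3.54, MHC class I 1.68 (1.503), NK ligands 0.28, cytokines 0.33, matrix genes 0.23, replication -0.78 (-0.84), mitosis -0.81 (-0.91) and cholesterol 0.034 (-0.064). Leaving out 1 library gave 0.22 to 0.31 for the TIMP list, 3.38 to 3.55 for effectors, 0.38 to 0.45 for NK ligands and -2.75 to -2.42 for cadherins. Of 18 list medians under 16 alternatives, 3 changed sign: matrix genes (no filter, -0.05), MAPK genes (quantile, -0.07; without KO 2 replicate 2, -0.06; without CRISPR Control replicate 2, -0.06) and cholesterol genes (quantile, 0.034; without CRISPR Control replicate 3, 0.0038). The cause was not tested.

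For 94 named genes beside TIMP1, 1489 of 1501 alternative values kept their direction and side of the threshold. HNRNPC, not called at -0.01, ranged from -0.072 (without KO 2 replicate 3) to 0.048 when 1 library was left out, and was 0.10 with equal totals, 0.012 with TMM, 0.18 with quantile normalization, where it was called higher (limma adjusted p = 0.029), 0.03 without KO 2 replicate 2, 0.048 without CRISPR Control replicate 2 and 0.012 with edgeR. Calls were lost for PDIA3 with equal totals (-0.15) and quantile normalization (-0.10), for HOXC8 with equal totals (-0.21) and without CRISPR Control replicate 2 (-0.23), and for ACTB and EEF1A1 with quantile normalization (0). Genes in stretches numbered 1522 and 863 with windows of 60 genes, and 3663 and 793 with equal totals, instead of 2405 and 1508. With the stricter motif core the shares of windows were 0.714% of all tested genes, 46.5% of effectors and 5.88% of MHC class I genes.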
